A study of Mus musculus with 12 samples.

Results

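The core genes of the circadian clock were followed through single-nucleus RNA-seq of mouse lung: the activators Arntl, Clock and Npas2, the repressors Per1, Per2, Per3, Cry1 and Cry2, and the nuclear receptor gene Rora. They are 9 of the 31053 genes in the deposited matrices and were picked by symbol, with earlier results of the same libraries known. All 9 had UMIs (counted RNA molecules) in each of the 12 libraries, from 4052 in all for Npas2 to 150982 for Rora, and all 9 passed the filter on low counts in sums over the whole lung.

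Lungs came from C57BL/6J mice, 7 weeks old when bleomycin, a drug whose injury to the lung is followed by scarring, or else PBS was instilled into the trachea. From day 5 the mice received NVP-BHG712, an inhibitor of the receptor tyrosine kinase EphB4, or its vehicle by gavage for 5 days, and lungs were taken on day 14 to ask whether blocking EphB4 lessens fibrosis. The 4 groups were PBS_Vehicle, PBS_NVP-BHG712, Bleo_Vehicle and Bleo_NVP-BHG712, with 3 libraries each. All mice were wild type and all lungs were perfused, frozen and sorted for DAPI-stained nuclei, so the levels are those of nuclear RNA. The time of day at which lungs were taken is not given in the sources used here.

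In the mammalian clock, ARNTL (also called BMAL1) pairs with CLOCK or its relative NPAS2 and binds E-boxes in DNA, which raises transcription of the Per and Cry genes. PER and CRY proteins then return to the nucleus and hold back the activators, closing a loop that takes about a day. A further loop acts on Arntl itself, which the ROR receptors raise and the Rev-erb receptors (Nr1d1, Nr1d2) lower, while the PAR bZIP factor DBP and the repressor NFIL3 meet at D-boxes, as in the Per genes. Glucocorticoids raise Per1 and Per2 in many tissues, and airway club cells are known to carry a strong lung clock. Levels of Arntl and Npas2 thus usually run opposite to those of the Per genes, with Cry1 later than the other repressors.

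RefSeq promoters of 300 bases (250 before the transcription start and 50 from it, build GRCm38.p6) were found for 8 of the 9 genes, 12 promoters in all. They were searched on both strands for the E-box CACGTG, its variant CACGTT, the core AGGTCA that ROR and Rev-erb receptors bind, and the D-boxes TTATGTAA and TTACGTAA. Of 32851 mouse promoters of this length, 7.15% held the E-box, 4.68% the variant, 16.3% the receptor core and 1.06% a D-box. The promoters of Cry1, Per1 and Per3 are shown because Cry1 gave the clearest group difference below and because these 3 hold an E-box or D-box. Capitals mark the matched letters, on whichever strand, and no 2 matches overlap.
Cry1 (chr10:85185005-85185304, minus strand): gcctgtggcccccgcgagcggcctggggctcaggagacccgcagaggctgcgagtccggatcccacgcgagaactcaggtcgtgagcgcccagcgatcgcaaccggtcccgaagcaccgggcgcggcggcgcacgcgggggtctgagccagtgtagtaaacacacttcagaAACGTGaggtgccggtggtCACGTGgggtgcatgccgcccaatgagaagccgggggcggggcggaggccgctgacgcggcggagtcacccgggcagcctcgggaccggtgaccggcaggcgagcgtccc
Per1 (chr11:69098699-69098998, plus strand, the more upstream of its 2 promoters): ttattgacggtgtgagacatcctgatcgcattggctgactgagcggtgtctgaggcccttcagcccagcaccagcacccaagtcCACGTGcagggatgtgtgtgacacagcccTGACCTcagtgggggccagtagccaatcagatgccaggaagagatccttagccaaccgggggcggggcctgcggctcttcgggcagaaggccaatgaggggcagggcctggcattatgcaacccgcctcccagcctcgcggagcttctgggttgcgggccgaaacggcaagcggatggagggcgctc
Per3 (chr4:151044616-151044915, minus strand): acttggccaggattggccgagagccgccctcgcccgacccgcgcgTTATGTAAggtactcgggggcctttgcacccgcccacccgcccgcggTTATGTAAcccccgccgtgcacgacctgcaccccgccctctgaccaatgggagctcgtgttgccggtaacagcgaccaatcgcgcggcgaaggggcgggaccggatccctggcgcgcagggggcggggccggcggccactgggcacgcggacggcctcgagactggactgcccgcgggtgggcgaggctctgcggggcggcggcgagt
In Cry1 the E-box begins 60 bases and the variant 79 bases before the start. In Per1 the E-box begins 166 bases and the receptor core 137 bases before it. Per3 holds the D-box letters TTATGTAA at 205 and 158 bases before the start. Cry2 held 1 variant E-box at 166 bases before its start, 1 Arntl promoter held the receptor core at 31 bases after the start and 1 Clock promoter held it at 119 bases before. Npas2 and Rora held none of these letters in the window. Per2 was not in the table.

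On GRCm38 (GENCODE M21) the genes lie at chr7:113207465-113314126 for Arntl (ENSMUSG00000055116), chr5:76209868-76304792 for Clock (ENSMUSG00000029238), chr1:39193731-39363236 for Npas2 (ENSMUSG00000026077), chr11:69095217-69109960 for Per1 (ENSMUSG00000020893) and chr1:91415982-91459324 for Per2 (ENSMUSG00000055866). Per3 (ENSMUSG00000028957) is at chr4:151003652-151044665, Cry1 (ENSMUSG00000020038) at chr10:85131700-85185064, Cry2 (ENSMUSG00000068742) at chr2:92403646-92434043 and Rora (ENSMUSG00000032238) at chr9:68653786-69388246. Nuclear libraries count intronic reads, and gene length runs from 14.7 kb for Per1 to 734.5 kb for Rora, so levels are compared below between samples and cell classes and not between genes. Per3 overlaps Camta1 on the same strand, where reads of the overlap cannot be assigned with certainty.

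Kept libraries held 1168 to 11867 nuclei and 3521537 to 46457084 UMIs. Any 2 libraries shared few cell barcodes (at most 0.845% of the smaller one). Whole-lung levels are given as CPM (counts scaled to a fixed library total) after TMM scaling. The profiles of the 9 libraries outside Bleo_Vehicle fell into 3 sets that cross the groups. Set 1 held replicate 1 of PBS_Vehicle and of PBS_NVP-BHG712, which are also the only libraries that GEO's labels put in run 1. Set 2 held replicate 2 of PBS_Vehicle, PBS_NVP-BHG712 and Bleo_NVP-BHG712, and set 3 held replicate 3 of these groups and replicate 1 of Bleo_NVP-BHG712. Within a set, libraries differed by 1.32 to 2.22 times counting noise (median 1.67), and between sets by 2.93 to 7.8 times. Of the 9 libraries, 8 were nearest to a library of another group. The 3 Bleo_Vehicle libraries differed from each other by 4.08 to 13.3 times, came from batches 6, 6 and 7, and had median mitochondrial shares of 0.682% to 1.62%, against at most 0.0472% elsewhere. Bleo_Vehicle replicate 1 stood farthest out, at 14.4 to 16.9 times counting noise from the 9 libraries of the other groups. Bleo_NVP-BHG712 came from run 4 alone, PBS_Vehicle from runs 1 and 2 and PBS_NVP-BHG712 from runs 1 to 3, so batch and bleomycin group cannot be told apart. Whether libraries of a set share an animal or carry a wrong label was not tested, and the contrasts without Bleo_Vehicle rest on these labels. Each gene below is therefore given library by library.

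**Figure D1:**
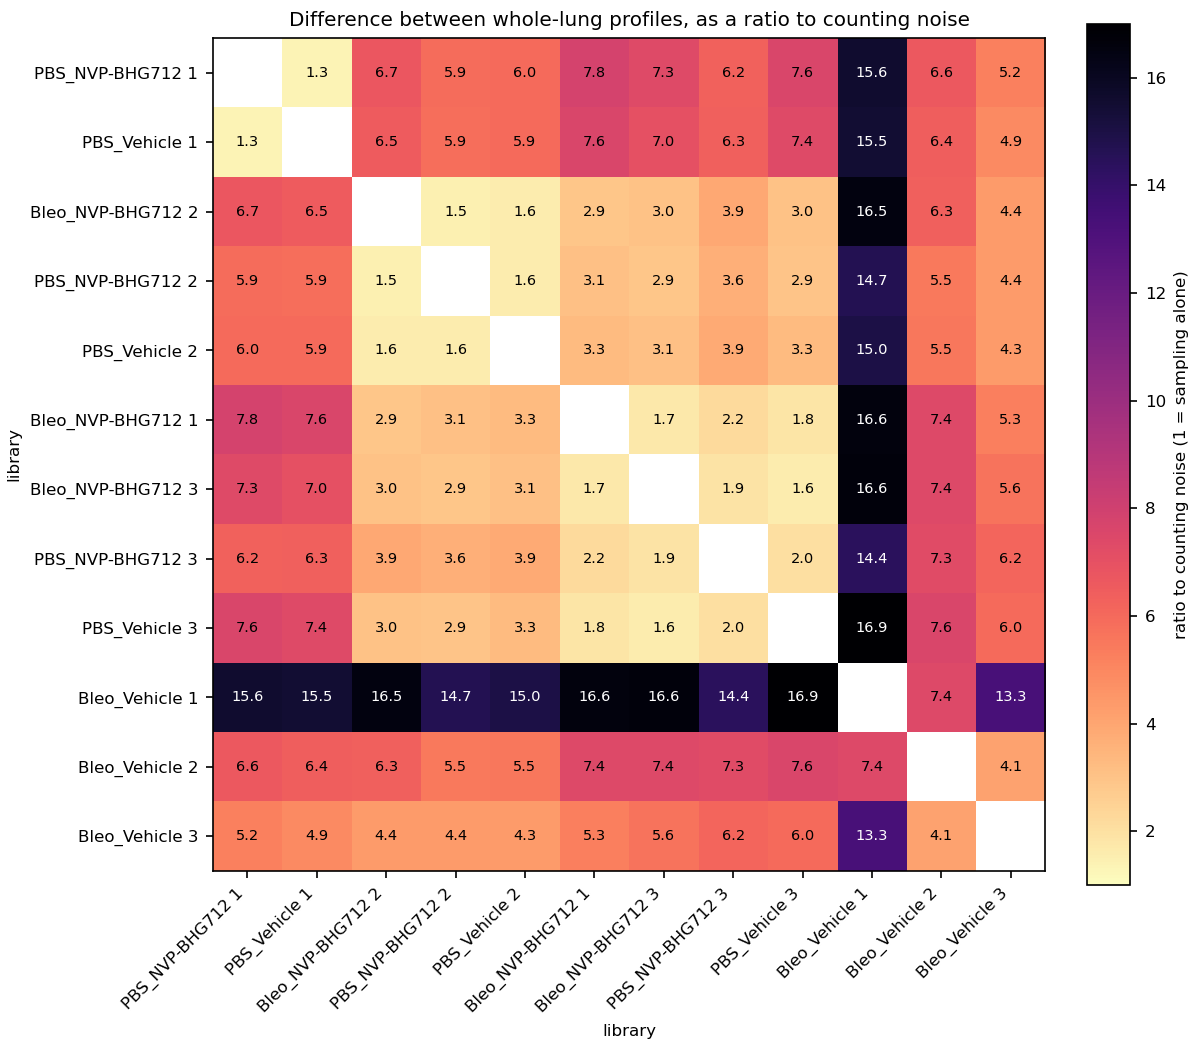
Difference between each pair of the 12 whole-lung profiles, thinned to 1 depth, as a ratio to counting noise (colour and printed value, 1 meaning sampling alone). Libraries are ordered by set, and the pairs within a set stand out at 1.32 to 2.22.

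Arntl and Npas2, the partner genes at the top of the loop, had high values in the run 1 libraries of both PBS groups. Arntl stood at 71.8 CPM in PBS_Vehicle replicate 1 and 71.9 CPM in PBS_NVP-BHG712 replicate 1, the run 1 libraries. In the other 4 PBS libraries it lay between 24.0 and 27.0 CPM, and in the 3 Bleo_NVP-BHG712 libraries at 26.4, 23.8 and 27.7 CPM. The Bleo_Vehicle libraries had 85.3, 39.6 and 57.9 CPM, all above these 7 and astride the run 1 level. Npas2, whose protein can stand in for CLOCK, followed the same order: 22.8 and 24.9 CPM in run 1, 6.29 to 10.2 CPM in the 7 others and 18.2, 17.3 and 42.5 CPM in Bleo_Vehicle. The run 1 values of Arntl and Npas2 lay above those of the other 4 PBS libraries without overlap, as did 24.6% of all 14442 genes tested, and 22.5% of genes lay below them. Run 1 thus differed from the other PBS libraries over much of the profile, and the split of the members is given as a description.

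Clock, the third activator gene, was nearly level. It ranged from 178 to 195 CPM over the 9 libraries outside Bleo_Vehicle, which had 205, 174 and 216 CPM. Its run 1 values of 179 and 181 CPM lay within the range of the other PBS libraries. Rora, which encodes a receptor that activates Arntl, ran the other way from Arntl in run 1, at 717 and 694 CPM against 835 to 1008 CPM in the other PBS libraries. Rora was lowest in Bleo_Vehicle replicate 1, at 468 CPM, while replicates 2 and 3 of that group had 1170 and 1137 CPM, above every other library.

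In whole-lung sums the Per genes had lower values in run 1 than in the remaining PBS libraries, opposite to Arntl. Per3 was at 47.6 and 51.9 CPM in run 1, at 76.0 to 86.7 CPM in the other 7 libraries outside Bleo_Vehicle, and at 21.6, 66.4 and 63.3 CPM in Bleo_Vehicle. Per2 was at 40.6 and 46.4 CPM in run 1, 51.1 to 75.2 CPM in the 7 others, and 63.4, 114 and 99.1 CPM in Bleo_Vehicle. Per1, an early-responding member of the family, was at 31.4 and 32.6 CPM in run 1 and 38.6 to 46.7 CPM in the 7 others. Bleo_Vehicle spanned all of these with 57.9, 44.6 and 28.6 CPM. In the 6 PBS libraries, the run 1 values of Per1, Per2 and Per3 lay below the others without overlap, as did those of Cry1 and Rora, so 5 of 9 members did, against the 22.5% of all genes. Within the cell classes described below, most classes showed no such split. Run 1 lay below in 0 of 7 classes for Per1, 2 of 8 for Per2 and 2 of 6 for Per3. The counts were 1 of 8 for Cry1 and 4 of 10 for Rora. For Arntl run 1 lay above in 8 of 9 classes and for Npas2 in 5 of 5. The share of all genes with such splits within classes was not taken, so these class counts are a description.

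The Cry genes behaved differently from each other. Cry1 was at 13.6 to 20.9 CPM in all 9 libraries outside Bleo_Vehicle and at 49.5, 41.6 and 48.3 CPM in Bleo_Vehicle. It is the only member whose 3 Bleo_Vehicle values lay apart from the 9 others. The share of all genes with such a split was not taken, so this is a description. Its 2 run 1 values (13.6 and 14.4 CPM) were below the other PBS libraries, at 16.4 to 20.9 CPM. Cry2 stayed between 61.2 and 94.6 CPM everywhere, and Bleo_Vehicle, with 61.2, 69.2 and 86.8 CPM, overlapped each other group. In bulk sums such as these, fewer cells of a type and less RNA per cell cannot be told apart.

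**Figure D2:**
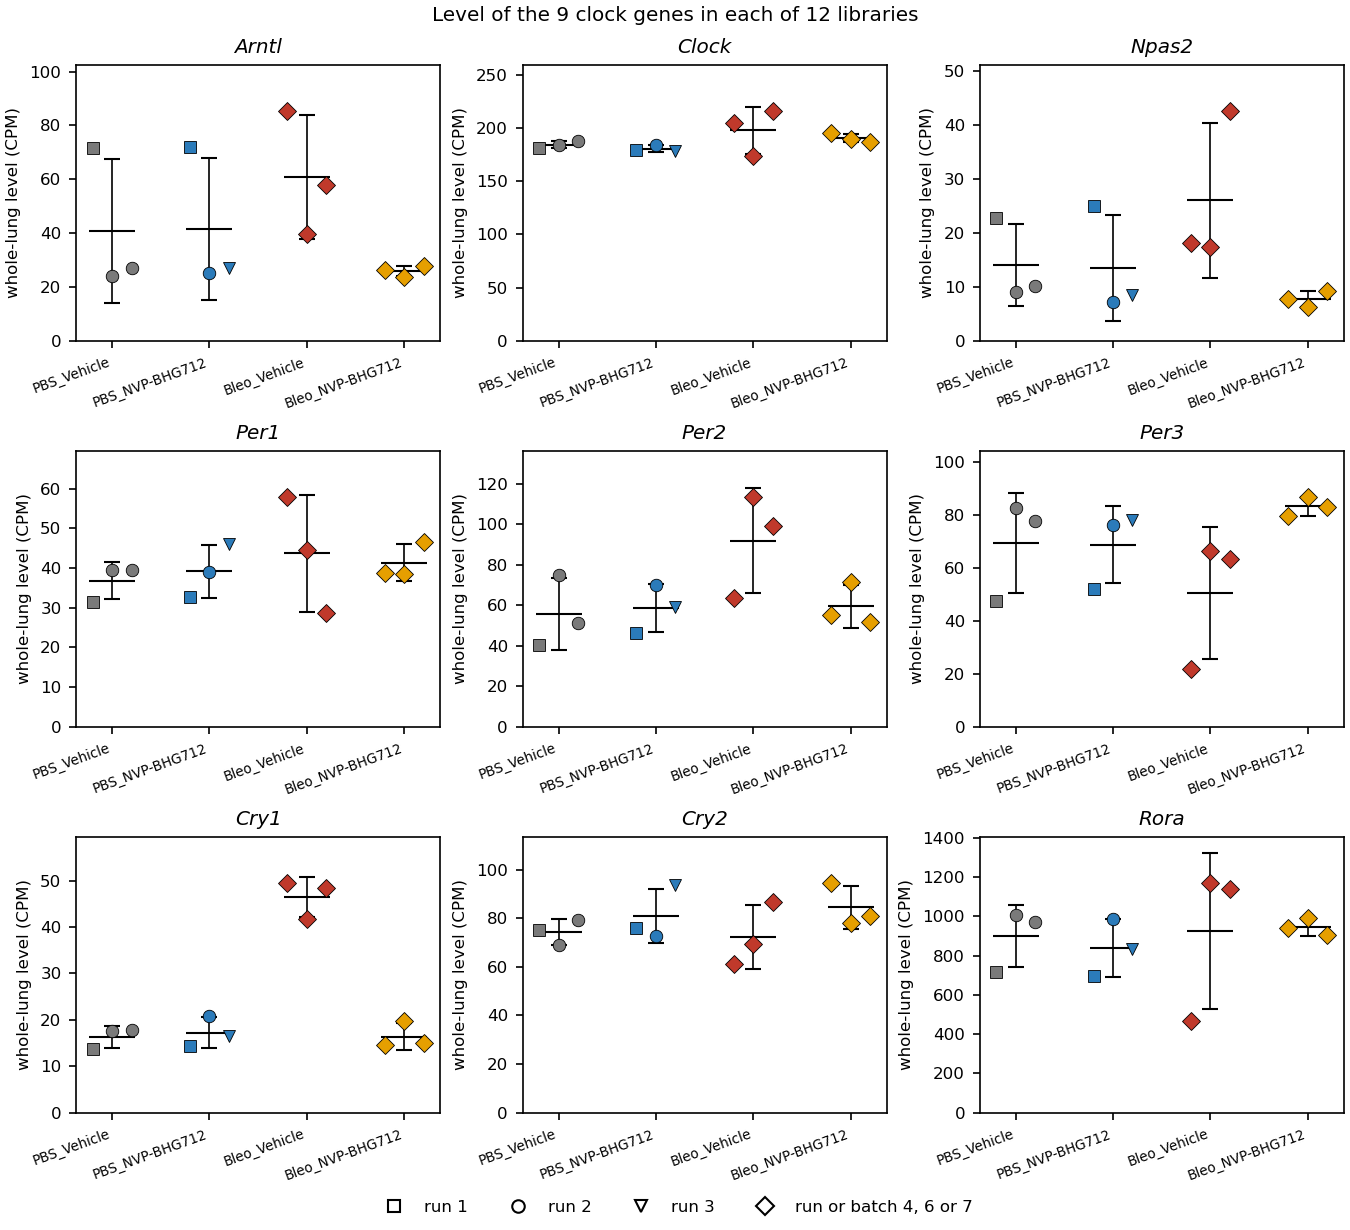
Whole-lung level of each gene (CPM after TMM scaling) in each of the 12 libraries; points are libraries, marker shapes show the run or batch number, and lines with bars are the mean and SD of 3 libraries. Arntl and Npas2 are high in the run 1 libraries (squares), while Cry1 is high in the 3 Bleo_Vehicle libraries alone.

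The contrasts with Bleo_Vehicle took part in the choice of these genes, so their calls are given as a description. A call means an adjusted p under 0.05 in edgeR, over all 14442 genes tested. For Bleo_NVP-BHG712 against Bleo_Vehicle, the comparison that asks what the inhibitor changed in injured lungs, 1 of 9 members was called, against 5.51% of all genes, and nothing is read from this count. The called member was Cry1, at 16.4 CPM ± 2.81 (SD, n = 3) in Bleo_NVP-BHG712 and 46.5 CPM ± 4.25 in Bleo_Vehicle, a log2 change of -1.49 ± 0.19 (SE). Arntl was lower by about as much (-1.22 ± 0.48) and Npas2 by more (-1.78 ± 0.55), with wider errors. Per2 (-0.63 ± 0.26) and Per3 (0.70 ± 0.34) had opposite signs. Per1 (-0.06 ± 0.23), Clock (-0.06 ± 0.10), Cry2 (0.22 ± 0.15) and Rora (0.03 ± 0.28) lay closer to 0. Arntl, Npas2 and Cry1 were lower in Bleo_NVP-BHG712 without overlap, as were 17.3% of all genes, and Per3 was higher without overlap, as were 15.6%. That makes 4 of 9 members without overlap, against 32.9% of all genes in either direction.

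For Bleo_Vehicle against PBS_Vehicle, the comparison for bleomycin alone, 1 of 9 members was called, against 2.44% of all genes. It was Cry1 again, from 16.3 CPM ± 2.39 (SD, n = 3) in PBS_Vehicle, a log2 change of 1.52 ± 0.19 (SE), and it alone had no overlap (11.4% of all genes were higher and 8.97% lower without overlap, 20.3% in either direction). Both contrasts hold the same Bleo_Vehicle libraries, so their values are not independent. The other log2 changes were 0.54 ± 0.47 for Arntl, 0.88 ± 0.51 for Npas2, 0.10 ± 0.10 for Clock, 0.24 ± 0.23 for Per1, 0.74 ± 0.26 for Per2, -0.43 ± 0.34 for Per3, -0.04 ± 0.15 for Cry2 and 0.04 ± 0.28 for Rora. Without PBS_Vehicle replicate 1, the run 1 library of the control group, the change of Arntl was 1.24 in place of 0.54.

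The interaction, which is the inhibitor's effect after bleomycin minus its effect after PBS, was called for 1 of 9 members, again Cry1 (-1.58 ± 0.27), against 0.298% of all genes. It was lost without any of 9 single libraries, every one but PBS_Vehicle replicate 1 and Bleo_Vehicle replicates 1 and 3, with log2 values of -1.73 to -1.41.

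The calls of Cry1 held in both contrasts without each of the 12 libraries in turn, with log2 changes of -1.64 to -1.42 and of 1.39 to 1.58. The mitochondrial share moves with the same 3 libraries. When nuclei under 500 UMIs or over 1% mitochondrial UMIs were dropped, Cry1 changed by -1.49 and 1.51. The Bleo_Vehicle nuclei that remain still come from the same libraries and batches, so the part of nuclei quality was not tested. The mean of its changes within the cell classes where it passed the filter on low counts was -1.40 and 1.55. It gives each class equal weight whatever its number of nuclei. It also includes classes, named below, where Cry1 passed the filter only because of its Bleo_Vehicle levels.

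In the contrasts that leave out Bleo_Vehicle, no member was called in sums over the whole lung. For PBS_NVP-BHG712 against PBS_Vehicle, the effect of the inhibitor in uninjured lungs, edgeR called 0 of 9 members and 0% of 14442 genes (43 genes and 0 members at an unadjusted p under 0.05; DESeq2 called 0 genes too). Log2 changes of the members lay between -0.10 ± 0.28 for Rora and 0.12 ± 0.15 for Cry2, and each edgeR adjusted p was 1. The groups overlapped for all 9 members, while 3.07% of all genes had no overlap. Within run 1, PBS_NVP-BHG712 against PBS_Vehicle differed on a log2 scale by -0.05 (Rora) to 0.19 (Per2) over the 9 members. In run 2, PBS_NVP-BHG712 replicate 2 against the mean of both PBS_Vehicle libraries differed by -0.40 (Npas2) to 0.24 (Cry1). With run as a block in the 6 PBS libraries, 0 members were called.

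For Bleo_NVP-BHG712 against PBS_NVP-BHG712, the effect of bleomycin in mice given the inhibitor, edgeR again called 0 of 9 members and 0% of genes (397 genes and 0 members at an unadjusted p under 0.05; DESeq2 called 0). The log2 changes ran from -0.86 ± 0.55 for Npas2 and -0.70 ± 0.48 for Arntl (adjusted p = 0.97 for each in edgeR) to 0.28 ± 0.34 for Per3. Clock and Per3 were higher in Bleo_NVP-BHG712 without overlap, as were 5.16% of all genes, and no member was lower without overlap, as were 5.85%. The PBS_NVP-BHG712 mean includes the run 1 library. With the 3 library sets as a block in these 9 libraries, chosen after the data were seen, 0 members were called in either contrast (1 and 0 at an unadjusted p under 0.05).

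**Figure D3:**
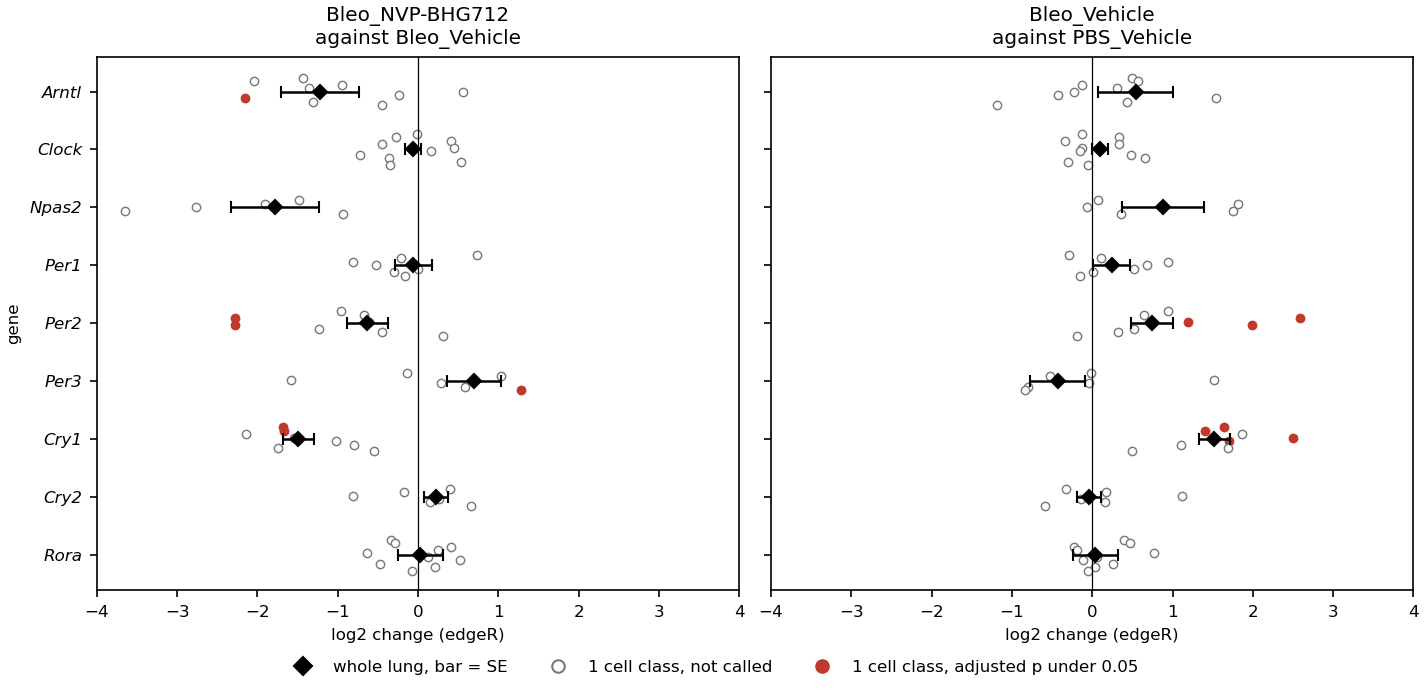
Log2 change of each gene in the 2 contrasts with Bleo_Vehicle, from edgeR. Black diamonds are whole-lung sums with SE bars and circles are single cell classes, filled where the adjusted p is under 0.05. For Cry1 every class where it passed the filter on low counts lies on the same side of 0 as the whole lung, but some classes passed only because of Bleo_Vehicle levels.

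The activators and the Per genes were also set against each other inside each library, as the mean log2 CPM of Arntl, Npas2 and Clock minus that of Per1, Per2 and Per3. This difference was 0.76 and 0.68 in the run 1 libraries and between -1.02 and -0.53 in the 7 others outside Bleo_Vehicle. Bleo_Vehicle had 0.67, -0.50 and 0.52. With only Arntl and Npas2 against Per2 and Per3 the run 1 libraries had -0.12 and -0.21, and Bleo_Vehicle had 0.09, -1.73 and -0.67, so the nearness of single Bleo_Vehicle libraries to run 1 depended on the genes used. The group means were -0.21 ± 0.86 (SD, n = 3) in PBS_Vehicle, -0.33 ± 0.87 in PBS_NVP-BHG712, 0.23 ± 0.64 in Bleo_Vehicle and -0.80 ± 0.19 in Bleo_NVP-BHG712. The mean ± SD ranges overlapped for every pair of groups except Bleo_Vehicle and Bleo_NVP-BHG712. Values of the same difference were taken in the 4 classes where all 6 genes passed the filter. In fibroblast-like nuclei it was 0.39 and 0.55 in run 1, -2.05 to -1.10 in the 7 others and 0.70, -1.42 and -0.73 in Bleo_Vehicle. In AT1-like nuclei it was -0.64 and -0.49, -2.22 to -1.39, and 0.51, -1.29 and -0.03 in the same order, and in AT2-like nuclei 1.75 and 1.79, -1.13 to -0.20, and 0.41, -0.67 and 0.66. Club-like nuclei had 0.07 and 0.11 in run 1, -1.76 to -0.35 in the 7 others and 1.44, 0.02 and 1.83 in Bleo_Vehicle. The 3 Bleo_Vehicle libraries thus differed from each other in each of these classes.

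**Figure D4:**
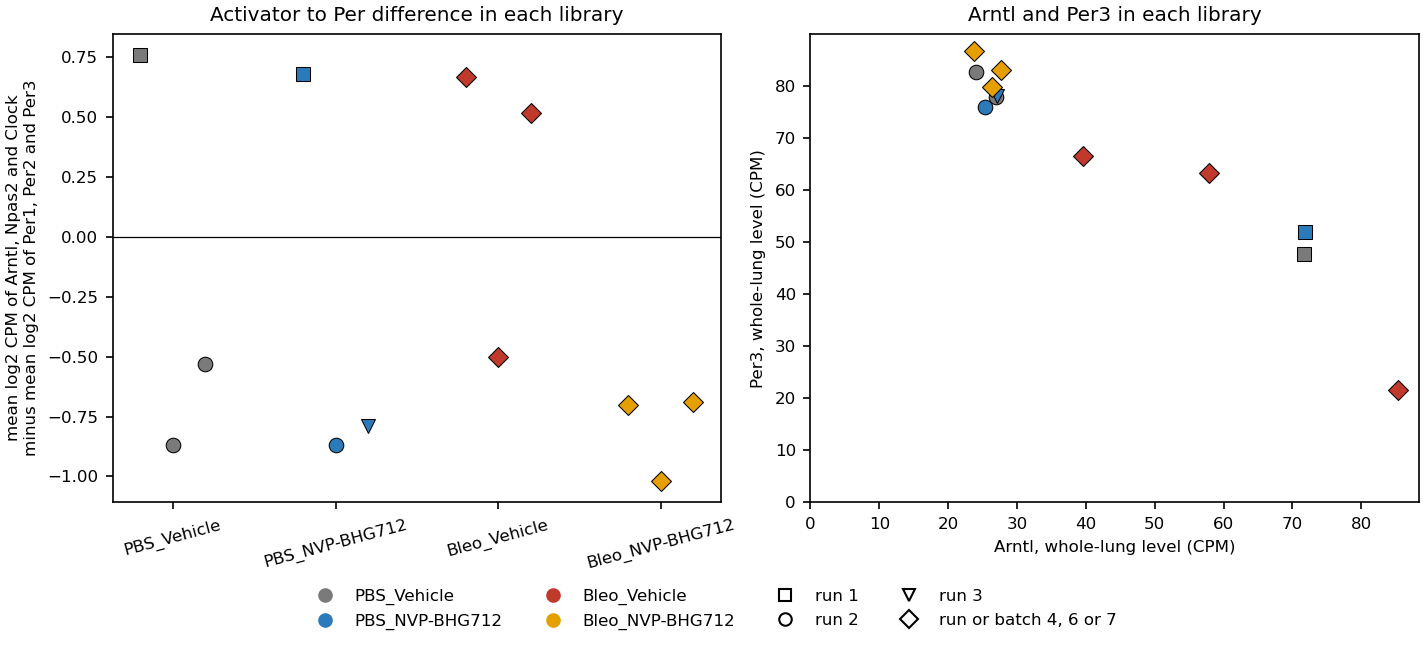
Left, mean log2 CPM of the 3 activators minus that of the 3 Per genes in each library; right, Arntl against Per3 (CPM). The run 1 libraries lie at 0.68 and 0.76 on the left, against -1.02 to -0.53 in the 7 other libraries outside Bleo_Vehicle, and carry high Arntl with low Per3 on the right.

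Cell classes were rebuilt by clustering the nuclei without the clock genes and naming clusters from marker genes, for example Sftpc and Lamp3 for AT2-like (alveolar type 2) and Foxj1 and Dnah5 for ciliated-like nuclei. Of 44611 nuclei kept, 1640 stayed unnamed. The 19 named classes carry the suffix -like, and class levels are CPM within the class in a library, over libraries with at least 20 nuclei of it. The T or NK-like class is given for 8 libraries, since the 4 libraries of set 3 held 3, 5, 5 and 4 of its nuclei, so its means rest on other libraries than those of classes with all 12. The levels are descriptions with no test, and no class differed from its neighbour in the order by more than the SDs of both, for any of the 9 genes.

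Arntl was highest in T or NK-like nuclei, at 203 CPM ± 117 (SD, n = 8), then in alveolar macrophage-like nuclei, at 101 CPM ± 27.0 (n = 12), and lowest in arterial endothelium-like nuclei, at 18.1 CPM ± 19.8 (n = 10). In alveolar macrophage-like nuclei Arntl was 118 and 111 CPM in run 1, above the 73.4 to 99.7 CPM of the other 4 PBS libraries. Bleo_NVP-BHG712 had 166, 92.8 and 132 CPM there, and Bleo_Vehicle 92.7, 73.1 and 76.8 CPM. In AT1-like nuclei it was 66.6 and 75.1 CPM in run 1 and 7.26 to 16.6 CPM in the 7 other libraries outside Bleo_Vehicle. In aerocyte-like nuclei it was 46.8 and 60 CPM in run 1, overlapping the 15.9 to 48.9 CPM of the other 4 PBS libraries. Over the 9 classes where Arntl passed the filter on low counts, run 1 lay above the other PBS libraries in 8, a count given as a description.

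Npas2 was highest in the airway classes. It reached 94.7 CPM ± 59.7 (SD, n = 12) in ciliated-like and 67.5 CPM ± 89.8 in club-like nuclei, 59.0 CPM ± 54.7 (n = 8) in mesothelial-like nuclei and 0.504 CPM ± 0.820 (n = 12) in general capillary-like nuclei. In AT2-like nuclei Npas2 was 94.4 and 124 CPM in run 1 and 5.66 to 30 CPM in the 7 others. Clock varied least among classes, 2.86-fold from alveolar macrophage-like nuclei, at 299 CPM ± 66.1 (n = 12), to ciliated-like nuclei, at 105 CPM ± 35.3. Ciliated-like nuclei thus had the highest Npas2 and the lowest Clock mean of the 19 classes.

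Among the repressors, Per2 and Per3 were highest in the airway classes. Per2 was at 156 CPM ± 41.1 (SD, n = 12) in ciliated-like and 133 CPM ± 39.7 in club-like nuclei, and Per3 at 136 CPM ± 44.6 in club-like and 98.1 CPM ± 45.7 in ciliated-like nuclei. Cry2 was at 149 CPM ± 50.0 in ciliated-like, 130 CPM ± 24.7 in AT1-like, 106 CPM ± 31.1 in AT2-like and 80.4 CPM ± 20.2 in club-like nuclei. Alveolar macrophage-like nuclei had the lowest means of Per3, at 8.54 CPM ± 7.64, and of Cry2, at 9.95 CPM ± 6.28. Cry1, like Arntl, was highest in T or NK-like nuclei, at 85.9 CPM ± 52.2 (n = 8), then ciliated-like nuclei, at 53.5 CPM ± 17.3 (n = 12). Per1 ranged from 51.8 CPM ± 34.1 in T or NK-like to 16.0 CPM ± 10.8 (n = 7) in lymphatic endothelium-like nuclei.

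Rora was highest in stromal classes. It was at 2375 CPM ± 618 (SD, n = 12) in smooth muscle-like, 2334 CPM ± 969 (n = 8) in pericyte-like, 1874 CPM ± 560 in fibroblast-like and 1855 CPM ± 312 (n = 8) in mesothelial-like nuclei. It was at 198 CPM ± 52.3 (n = 12) in AT1-like and 185 CPM ± 115 (n = 10) in interstitial macrophage or monocyte-like nuclei. Of the 700 smooth muscle-like nuclei, 431 lay in a cluster with Lgr5, Hhip and Aspn among its leading genes. The other 269 lay in a cluster with Acta2, Myh11 and Actg2 among them.

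**Figure D5:**
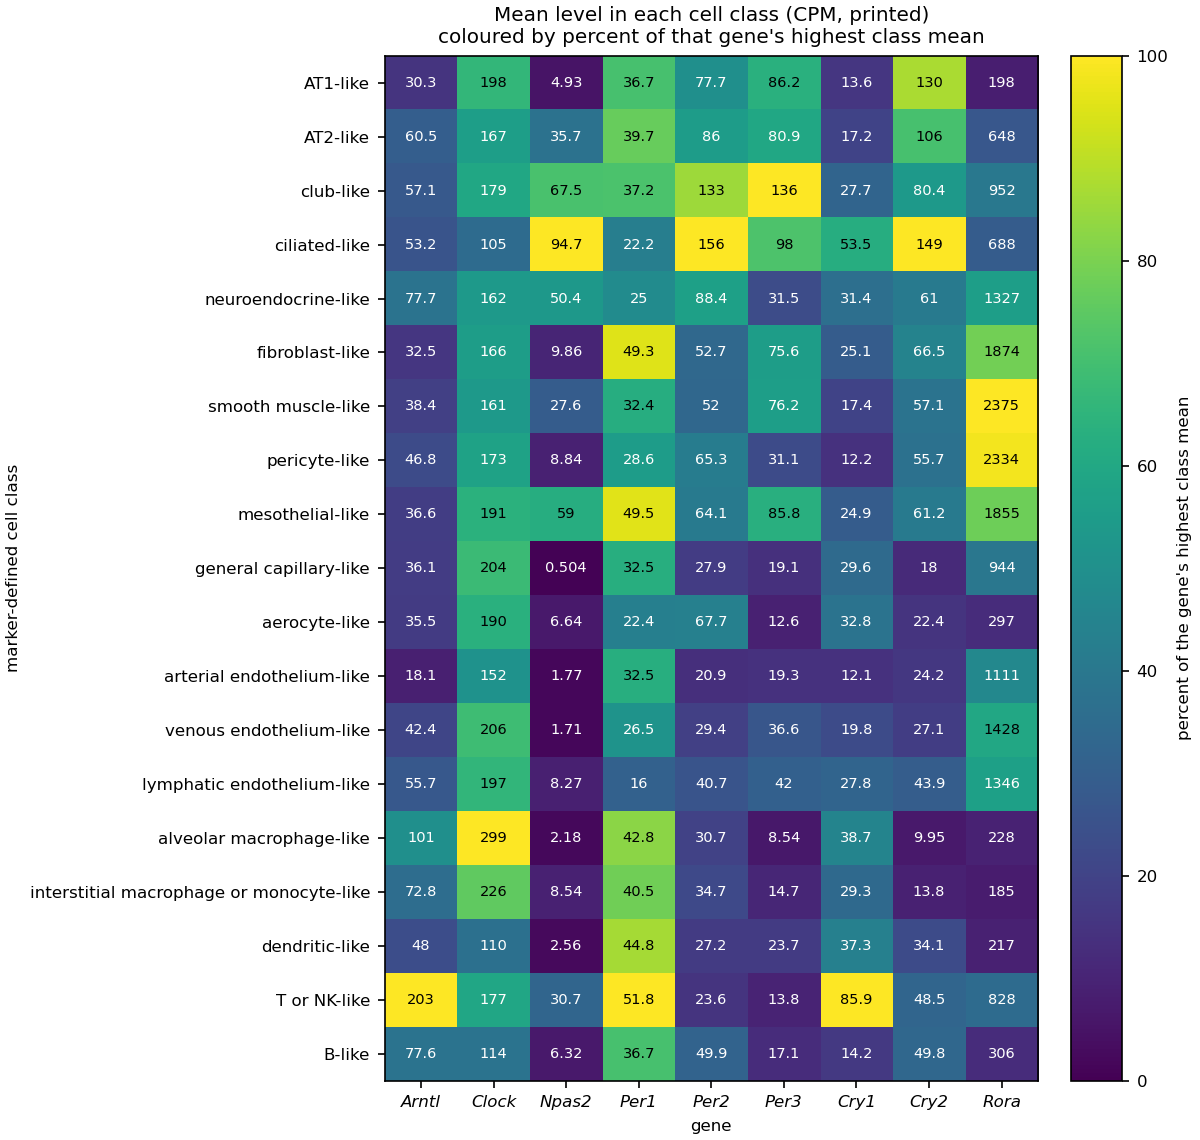
Mean level of each gene (CPM, printed) in each of 19 marker-defined classes, coloured as percent of that gene's highest class mean. Npas2, Per2 and Cry2 are highest in ciliated-like nuclei, Arntl, Per1 and Cry1 in T or NK-like nuclei, and Rora in smooth muscle-like nuclei.

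The contrasts were repeated within the 10 classes that had at least 20 nuclei in every library, where 69 pairs of class and member passed the filter on low counts. For Bleo_NVP-BHG712 against Bleo_Vehicle 6 of 69 pairs were called (4.25% of all class and gene pairs), and for Bleo_Vehicle against PBS_Vehicle 7 of 69 (3.17%). In the classes with a called member, the share of all genes called against Bleo_NVP-BHG712 was 7.57% for fibroblast-like, 5.62% for AT1-like, 5.02% for ciliated-like, 3.93% for general capillary-like, 3.67% for alveolar macrophage-like and 2.15% for club-like nuclei. Against PBS_Vehicle it was 5.68% for alveolar macrophage-like, 4.97% for fibroblast-like, 3.46% for AT2-like, 3.18% for general capillary-like and 3.15% for AT1-like nuclei. As with the whole lung, these contrasts took part in the choice of genes and the counts are a description. For PBS_NVP-BHG712 against PBS_Vehicle and for Bleo_NVP-BHG712 against PBS_NVP-BHG712, edgeR called 0 of 69 pairs (0% of all pairs, 0 members at an unadjusted p under 0.05, and 0 members called by DESeq2). With no filter on low counts, Arntl in AT1-like nuclei was called for Bleo_NVP-BHG712 against PBS_NVP-BHG712 (-1.71 ± 0.29). The groups overlapped there, at 7.75, 7.26 and 16.6 CPM against 75.1, 13.3 and 16.4 CPM, and the highest value is the run 1 library. The interaction was called for 0 of 69 pairs in edgeR (0.45% of all pairs), with 17 member pairs at an unadjusted p under 0.05. Over all genes, the 2 contrasts without Bleo_Vehicle had 705 and 1983 pairs with an unadjusted p under 0.05.

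Cry1 was higher in Bleo_Vehicle than in PBS_Vehicle in 8 of 8 classes tested, with log2 changes of 0.50 to 2.50, and 4 were called. In fibroblast-like nuclei, Cry1 was at 13.1, 18.7 and 20.4 CPM in PBS_Vehicle, 43.8, 55.9 and 62.0 CPM in Bleo_Vehicle and 19.5, 13 and 15.9 CPM in Bleo_NVP-BHG712, and it was called in both contrasts (1.64 ± 0.25 and -1.68 ± 0.26). Every Bleo_Vehicle value was above every value of the other groups, given as a description as for the whole lung. In AT1-like nuclei it was at 7.86, 11.9 and 10.8 CPM, 28.0, 22.4 and 25.5 CPM, and 6.03, 11.5 and 5.54 CPM in the same 3 groups, again called in both contrasts (1.41 ± 0.33 and -1.67 ± 0.35). In AT2-like nuclei the change from PBS_Vehicle was 2.50 ± 0.49 and rested on 24 UMIs in PBS_Vehicle, with 0 in its replicate 3, and 269 in Bleo_Vehicle. Cry1 passed the filter there through Bleo_Vehicle alone, at 37.2, 33.7 and 43.4 CPM, against at most 19.9 CPM in every other library. In general capillary-like nuclei it also passed only because of its Bleo_Vehicle levels, 85.9, 47.1 and 50.1 CPM. Elsewhere in that class only PBS_Vehicle replicate 3 and PBS_NVP-BHG712 replicate 2 exceeded 19.4 CPM. The direction in these classes was thus partly set by the filter, and the count of 8 classes is a description. In alveolar macrophage-like nuclei Cry1 was at 29.6, 13.1 and 20.4 CPM in PBS_Vehicle and 76.2, 50.6 and 83.9 CPM in Bleo_Vehicle (1.70 ± 0.36, called). The smallest changes were in ciliated-like nuclei, 0.50 ± 0.41 and -0.55 ± 0.43. The AT1-like call against PBS_Vehicle was also lost when only the libraries compared were fitted. The fibroblast-like, AT2-like and alveolar macrophage-like calls of Cry1 held without each library in turn. In AT1-like nuclei the call against PBS_Vehicle was lost without any single PBS_Vehicle or Bleo_Vehicle library (log2 changes over the 12 leave-outs 1.13 to 1.56), and that against Bleo_NVP-BHG712 without Bleo_NVP-BHG712 replicate 1 or 3 (-2.11 to -1.45).

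Among the 8 classes where Per2 passed the filter, its largest changes were in general capillary-like and alveolar macrophage-like nuclei. In general capillary-like nuclei it was at 6.28, 25.2 and 8.64 CPM in PBS_Vehicle, 85.9, 83.6 and 52.3 CPM in Bleo_Vehicle and 12.4, 19.2 and 11 CPM in Bleo_NVP-BHG712, with log2 changes of 2.58 ± 0.48 and -2.28 ± 0.53, both called. These rest on 29 UMIs in PBS_Vehicle, 236 in Bleo_Vehicle and 14 in Bleo_NVP-BHG712. In alveolar macrophage-like nuclei Per2 changed by 1.99 ± 0.39 and -2.28 ± 0.45, also called, from 16.3 to 26.2 CPM in PBS_Vehicle to 61.3 to 79.6 CPM in Bleo_Vehicle. Bleo_NVP-BHG712 had 14 UMIs there, 0 of them in replicate 1. In general capillary-like and alveolar macrophage-like nuclei, Per2 passed the filter only because of its Bleo_Vehicle levels. In AT2-like nuclei the change from PBS_Vehicle of 1.19 ± 0.32 was called, with overlapping groups (35.9 to 92.9 CPM against 89.2 to 147 CPM). In aerocyte-like nuclei, the other capillary class, Per2 changed by 0.52 ± 0.42 and -1.23 ± 0.48 with no call. In venous endothelium-like nuclei, where it did not pass the filter, Per2 was at 66.8 CPM ± 13.5 (SD, n = 3) in Bleo_Vehicle, from 90 UMIs, and at 9.61 CPM ± 12.0 in PBS_Vehicle, from 7 UMIs. In ciliated-like nuclei, where Per2 is highest, it changed by -0.19 ± 0.29 and 0.32 ± 0.29. The general capillary-like call against PBS_Vehicle held without each library, and that against Bleo_NVP-BHG712 was lost without Bleo_Vehicle replicate 2 or any single Bleo_NVP-BHG712 library (log2 changes -2.67 to -2.08). The alveolar macrophage-like calls were lost without PBS_Vehicle replicate 1 (range 1.82 to 2.14) and without Bleo_NVP-BHG712 replicate 2 (range -2.63 to -1.93). The AT2-like call held in only 3 of 12 leave-outs, those of PBS_Vehicle replicate 2, PBS_NVP-BHG712 replicate 1 and Bleo_Vehicle replicate 1 (0.73 to 1.57 over the 12), and was lost with DESeq2 and with only the libraries compared.

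Per3 and Arntl were each called in 1 class, both airway classes. Per3 in ciliated-like nuclei was at 14.1, 55.1 and 64.3 CPM in Bleo_Vehicle and 159, 107 and 175 CPM in Bleo_NVP-BHG712 (log2 change 1.29 ± 0.35), and the first of these values is 1 UMI. Across the 6 classes tested, its changes ran from -1.59 in general capillary-like to 1.29 in ciliated-like nuclei, with 4 positive and 2 negative. In general capillary-like nuclei Per3 passed the filter only with Bleo_Vehicle replicates 2 and 3, at 44.1 and 41.6 CPM. The highest value outside that group was 23.5 CPM, in PBS_Vehicle replicate 2. Bleo_NVP-BHG712 had 3, 6 and 3 UMIs there, so the range and signs are a description. Arntl in club-like nuclei was at 107, 96.2 and 159 CPM in Bleo_Vehicle and 14.4, 21.6 and 53.7 CPM in Bleo_NVP-BHG712 (-2.15 ± 0.49). Arntl was lower in Bleo_NVP-BHG712 in 8 of 9 classes, and the exception was the alveolar macrophage-like class, at 166, 92.8 and 132 CPM against 92.7, 73.1 and 76.8 CPM (0.56 ± 0.25). The share of all genes lower by class was not taken, so this count of classes is a description. The Per3 call was lost without PBS_NVP-BHG712 replicate 1, Bleo_Vehicle replicate 1 or 2 or any single Bleo_NVP-BHG712 library (log2 changes 1.15 to 1.52). It was also lost with only the libraries compared and with nuclei clustered without alignment of libraries. The Arntl call was lost without Bleo_Vehicle replicate 2 or 3 or Bleo_NVP-BHG712 replicate 1 or 2 (-2.71 to -1.82).

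Npas2 was called in no class. It was lower in Bleo_NVP-BHG712 in 5 of 5 classes, from -3.65 ± 1.10 in club-like, the largest change of any class and member pair against Bleo_Vehicle, to -0.93 ± 0.54 in ciliated-like nuclei. In club-like nuclei its Bleo_Vehicle values ranged from 72.2 to 336 CPM. In AT1-like nuclei Npas2 passed the filter through Bleo_Vehicle alone, at 13.6, 6.86 and 12.5 CPM, against at most 5.30 CPM in every other library. The count of classes is thus a description. Per1 was lower in 6 of 7 classes (-0.81 to 0.73) with no call. Clock, Rora and Cry2 had changes of both signs among the classes and no call. For Bleo_NVP-BHG712 against Bleo_Vehicle, their medians over classes were -0.14, 0.02 and 0.21.

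Of 28 other genes of the clock and its regulators, all tested, edgeR called 6 for Bleo_NVP-BHG712 against Bleo_Vehicle, 4 higher and 2 lower, against 5.51% of all genes. Their median log2 change was 0.27, against -0.05 over all genes, and that of the 9 members was -0.06. The higher ones were the Rev-erb gene Nr1d1 (3.04 ± 0.30), the PAR bZIP gene Dbp (2.47 ± 0.52), the AMP-activated kinase gene Prkaa2 (0.68 ± 0.16) and the deacetylase gene Sirt1 (0.55 ± 0.13). Nfil3 (-1.54 ± 0.40) was among the lower ones. For Bleo_Vehicle against PBS_Vehicle 3 were called, 2 higher, among them the repressor gene Bhlhe40 (1.33 ± 0.30), and 1 lower, Nr1d1 (-3.11 ± 0.30), against 2.44% of all genes, with a median over the 28 genes of -0.18 against 0.01 over all genes. Nr1d1 did not follow run as Arntl did: it was at 40 and 38.6 CPM in run 1 and 29.5 to 46.9 CPM in the 7 other libraries outside Bleo_Vehicle. Its paralog Nr1d2 split by run in the opposite direction to Arntl, at 115 and 120 CPM in run 1 and 195 to 225 CPM in the 7 others.

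Per1 can also be raised by glucocorticoids and by immediate-early signalling, so genes of both kinds are set beside it. For Bleo_NVP-BHG712 against Bleo_Vehicle, the 10 glucocorticoid-responsive genes had a median log2 change of -1.04, with 3 called lower (Ddit4, Mt1 and Mt2, named after their values were seen) against 5.51% of all genes, and the 14 immediate-early genes had a median of -0.75, with 0 called in edgeR. Per1 itself changed by -0.06. Fkbp5, a glucocorticoid target, followed the library sets: 153 and 162 CPM in set 1, 293, 334 and 320 CPM in set 2, and 51.1 to 57.7 CPM in set 3, against 909, 516 and 314 CPM in Bleo_Vehicle. Tsc22d3, another such target, was at 70.9 to 71.5, 96.3 to 111 and 50.7 to 60.8 CPM in the 3 sets, and Per1 showed no such order between sets 2 and 3 (38.6 to 39.6 and 38.8 to 46.7 CPM). In Bleo_Vehicle replicates 1 to 3, Fos was at 31.8, 18.0 and 10.8 CPM, Egr1 at 28.1, 11.9 and 8.41 CPM and Per1 at 57.9, 44.6 and 28.6 CPM, each gene highest in the library labelled replicate 1 and lowest in that labelled replicate 3. The part of either signal in the level of Per1 was not tested.

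The genes whose log2 CPM was most like each member, at most 3 for each, over the 12 libraries were found among 8135 named genes averaging at least 10 CPM. The libraries share groups, runs and cell mix, so Pearson's r is given as a description. Per3 had the closest matches, Hivep2 (r = 0.988) and Mettl24. Arntl was followed by Iqgap1 (0.984) and Zfp771, and Npas2 by Tm6sf1 (0.951), Scd2 and Ypel2. Cry1 was followed by Xylt1 (0.95), Mpnd and Ctsh, Per1 by Acin1 (0.952), Ddx49 and Kctd20, and Rora by Fbxw4 (0.944), Ces1d and Bbs9. The lists of Cry2 (Cyp4f17 at 0.925, Pitpnm3, Lmtk2), Per2 (Epn2 at 0.899, Akr1c14, Zfp423) and Clock (Acaca at 0.898, Me1, Cds1) had the lowest leading values. No other member appeared in any of these lists.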

How the data were processed

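Nuclei of 12 lungs were profiled by droplet RNA-seq. The authors deposited raw counts of UMIs per gene and barcode, made with Cell Ranger on mm10 (7.2.0 in the matrix headers, 7.0 in the submitters' notes, which also name Seurat 4.4.1). No normalised value was used. Of 49163 barcodes, those with under 200 genes (13), over 6000 genes (96) or over 5% mitochondrial UMIs (1735) were removed, and of 47319 that passed, 2708 predicted doublets (5.72%) were removed. The authors' removal of ambient RNA and their doublet caller were not run. Nuclei were clustered with scanpy 1.11.5 and leidenalg 0.10.2 after alignment of libraries, leaving clock genes out of the variable genes, and clusters were named from fixed marker lists.

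Counts were summed per library, over all nuclei and per class, since nuclei are not replicates. They were tested with edgeR 4.0.16 (quasi-likelihood, TMM scaling, all 12 libraries in 1 fit, Benjamini-Hochberg adjustment over all genes of the fit) in R 4.3.3. DESeq2 1.42.0, other scaling, filters and blocks, only the libraries compared, clustering without alignment of libraries and leaving out each library were alternatives. Scripts were tested on simulated data. Whole-lung CPM are TMM-scaled, and class CPM use that class's own UMI total without TMM. Depth was 3521537 to 46457084 UMIs per library, and counting error is only part of the error. The labels do not say that each library is a separate animal beyond its sample number, so p-values measure the spread between these samples.

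Replicate numbers pair PBS_Vehicle with PBS_NVP-BHG712 in the data (correlations of deviations 0.381 to 0.729), and the blocked fit also called 0 members there. The 9 members were named whatever their values. Other clock genes were named where called, 4 response genes were fixed by name, and the 3 genes most like each member were taken by Pearson's r. A few genes that these rules name are not reported here. Members and lists were chosen with earlier results of these data known.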

Additional observations from a re-analysis of the deposited data

Results flagged for a closer look

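The difference in whole-lung Cry1 between NVP-BHG712 and vehicle libraries was not the same after bleomycin as after PBS. The log2 change between NVP-BHG712 and vehicle was -1.49 after bleomycin and 0.08 after PBS, an interaction of -1.58 ± 0.27 (SE, called in edgeR). The call held in 3 of 12 fits that each left out 1 library. Bleo_Vehicle and Bleo_NVP-BHG712 share no run or batch, so inhibitor and batch cannot be told apart after bleomycin. The Bleo_Vehicle libraries that set this value took part in the choice of the genes, so the call is no independent evidence.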

How the results depend on the processing

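For Bleo_NVP-BHG712 against Bleo_Vehicle, members called went from 1 to 2 with DESeq2 (Npas2 and Cry1) and to 5 with the replicate block (Arntl, Npas2, Per2, Per3 and Cry1), and lay between 1 and 2 when single libraries were left out (2 without PBS_NVP-BHG712 replicate 1). For Bleo_Vehicle against PBS_Vehicle the replicate block gave 2 (Per2 and Cry1), and for the interaction leaving out single libraries gave 0 to 1. Genes called in these 3 comparisons (796, 352 and 43) became 1702, 972 and 339 with DESeq2 and 1918, 977 and 358 with the replicate block. They became 327, 176 and 22 when nuclei under 500 UMIs or over 1% mitochondrial UMIs were dropped. With only the libraries compared the first 2 were 526 and 28, and with no filter on low counts the interaction gave 73. Leaving out single libraries gave 75 (without Bleo_NVP-BHG712 replicate 3) to 2231, 39 (without PBS_Vehicle replicate 2) to 1321 and 15 (without Bleo_NVP-BHG712 replicate 1) to 210, each highest without Bleo_Vehicle replicate 3. Pairs of class and member called (6, 7 and 0) became 18, 15 and 4 with no filter and 14, 11 and 1 with the replicate block. Leaving out single libraries gave 2 to 8, 4 to 11 and 0 to 2, and for Bleo_NVP-BHG712 against PBS_NVP-BHG712 no filter gave 1 (Arntl, AT1-like) in place of 0. Of the called pairs, other methods lost Cry1 in AT1-like nuclei and Per2 in AT2-like nuclei against PBS_Vehicle, and Per3 in ciliated-like nuclei, each with only the libraries compared, Per2 also with DESeq2 and Per3 also with nuclei clustered without alignment of libraries. With Arntl and Npas2 against Per2 and Per3, the activator to Per means became -1.49, -1.60, -0.77 and -2.31 in PBS_Vehicle, PBS_NVP-BHG712, Bleo_Vehicle and Bleo_NVP-BHG712. The causes were not tested. Outside the PBS groups not every same-numbered pair correlated above 0.1 (correlations from -0.155 to 0.275; with the PBS groups, Bleo_NVP-BHG712 replicates 2 and 3 had 0.184 to 0.275 and replicate 1 -0.155 to -0.137), so the numbers were not taken as pairs, and the replicate block changed no other call of a member over the whole lung. Of the values of single genes, 463 alternatives stayed within the spread and 11 moved further. Low UMI sums limit the class values most.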
